A study of Mus musculus with 4 samples.

Results

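The clustered protocadherins are cell-surface proteins of the cadherin family, encoded by tandem arrays of similar genes on mouse chromosome 18. In the table of gene counts analysed here, 58 of 24015 genes belonged to these arrays, chosen by their symbols alone. They comprised 14 genes of the alpha cluster, 22 of the beta cluster and 22 of the gamma cluster. The alpha cluster was made of 12 numbered genes, Pcdha1 to Pcdha12, and 2 C-type genes, Pcdhac1 and Pcdhac2. The gamma cluster held 12 gamma-A genes, 7 gamma-B genes and 3 C-type genes, Pcdhgc3, Pcdhgc4 and Pcdhgc5.

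As background, each neuron switches on its own small set of these genes by choosing among their promoters, a process that involves the insulator protein CTCF and the cohesin complex. Every alpha and gamma gene contributes a large variable exon with its own promoter, and that exon is spliced to constant exons shared by the whole cluster. Beta genes have no constant exons. The resulting proteins bind like to like between cell membranes, and they are known for letting the dendrites of a neuron, Purkinje cells of the cerebellum among them, recognise and avoid each other. C-type genes stand at the far end of the alpha and gamma clusters, and many neurons express them together rather than by the choice that governs the other genes.

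The tissue was adult cerebellum of C57BL/6N mice aged 140 to 150 days. HT mice were heterozygous for Arid1b, which encodes a subunit of the BAF chromatin remodelling complex, and their WT littermates served as controls. Each genotype had 2 libraries, 1 from a male and 1 from a female, so genotype and sex were balanced. How the Arid1b allele was made, and in which cells it is disrupted, was not given in the sources used here.

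Library totals were 20287016 counts in the HT male, 15950899 in the HT female, 16453759 in the WT male and 20616219 in the WT female. Levels are given as CPM, counts scaled to a common library total, and the floor of 3 counts corresponds to 0.146 to 0.188 CPM. Arid1b itself averaged 54.4 ± 2.02 CPM in HT and 70.5 ± 0.791 CPM in WT (SD, n = 2 each). Its log2 fold change of -0.37 ± 0.11 (SE) did not pass the test (adjusted p = 0.243 by edgeR's quasi-likelihood fit). Markers of the labelled tissue were present in every library, with granule cell markers summing to 5021 to 7482 CPM and Purkinje cell markers to 4027 to 5524 CPM. The WT female library stood apart from the others for the protocadherins. It gave the lowest of the 4 values in 34 of 55 tested members (61.8%), against 32.0% of all tested genes, and the highest in 1 of 55. In the alpha cluster it was lowest for 11 of 12 tested genes, in the beta cluster for 9 of 21 and in the gamma cluster for 14 of 22. Leaving it out moved many of the values that follow, and the main ones are also given without it.

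All 58 genes together took 0.0389% of the counts in the HT male and 0.0408% in the HT female, against 0.0415% in the WT male and 0.0341% in the WT female. Expression was spread over nearly all genes of the clusters. Mean levels over the 4 libraries had a median of 4.25 CPM, and 11 genes reached 10 CPM. The low end was formed by 3 genes that did not have enough counts to be tested. Pcdhb1 had 2 and 4 counts in the HT male and female, against 5 and 1 in the WT male and female. Pcdha8 had 3 and 8 counts in the HT libraries, against 6 and 12 in the WT libraries. Pcdha4 had 2 counts in the HT male and 0 in the other 3 libraries.

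How reads were assigned bears on these levels. In the GENCODE vM21 annotation of GRCm38, a numbered alpha gene shared 2860 or more bases with other genes of its cluster, and the median numbered alpha transcript had 55.2% of its 100-base windows repeated in other members. The corresponding median was 44.0% for gamma-A and 0.208% for beta transcripts. The near-zero count of Pcdha4 shows that reads from the constant exons were not added to every alpha gene. Of the variable bases of Pcdha4, 96.3% were also covered by another annotated gene model on the same strand, compared with 8.86% for Pcdha6 and 13.7% for Pcdha7. The deposited table was made on another build, mm9, and the part of these overlaps in its counts was not tested. That table also held a row named Pcdha4-g, outside the symbol rule, with 0 counts in all 4 libraries. Exons on the opposite strand covered bases of 13 of the 57 members with a gene model. They covered 1513 of 2568 unshared bases of Pcdhgc3 and 1381 of 2637 of Pcdhga11, but 0 of Pcdhac2, Pcdhgb6 and Pcdhgc4. Whether reads were counted by strand was not given in the sources used here.

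Levels of different genes were compared per kilobase of variable sequence. Its length was taken from 1 annotated transcript per member, without the bases shared with the transcripts taken for other members. On this scale Pcdhgc3 stood at 28.4 CPM per kb, followed by Pcdhac2 at 7.73, Pcdhgb6 at 5.97, Pcdhga11 at 5.92 and Pcdhgc4 at 5.26 CPM per kb. The median level was 2.87 CPM per kb for gamma-A, 1.42 for gamma-B, 1.09 for beta and 0.679 for the numbered alpha genes. Pcdha10 had no gene model and was left out of this scale. The scale also depends on the transcripts taken. Pcdhga4 had 2608 such bases, but 1570 unshared ones when all annotated transcripts were compared. With RefSeq lengths the beta median was 1.20 CPM per kb, and Pcdhb14 had 2.32 in place of 0.918 CPM per kb. Between position along the cluster and level per length, the Spearman coefficient was 0.17 over 19 gamma-A and gamma-B genes and 0.34 over the 12 gamma-A genes alone. It was 0.22 over 22 beta genes, 0.22 over 10 numbered alpha genes and 0.52 over 12 genes of the alpha cluster with its C-type genes. Both alpha coefficients also left out Pcdha4, which the alpha median keeps. These are descriptions across genes of the same libraries, and genes are not independent replicates.

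**Figure D1:**
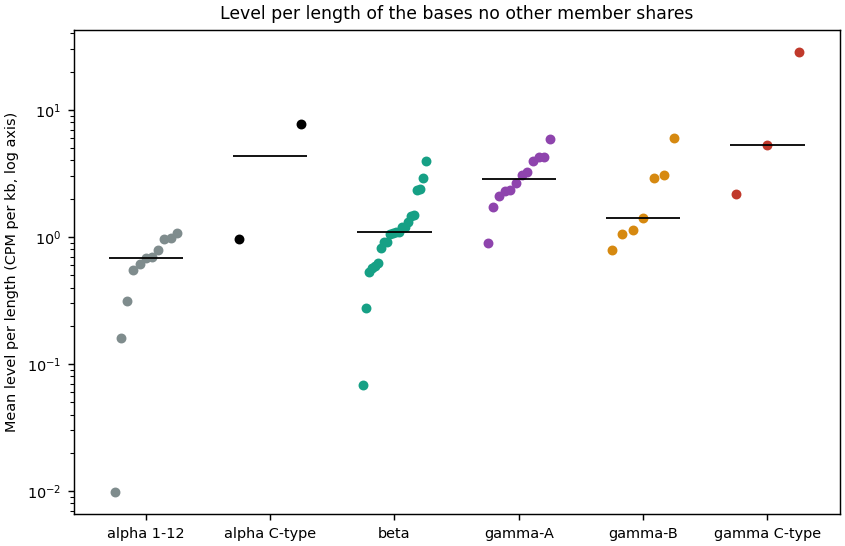
Level per kilobase of variable sequence for each gene, as the mean of the 4 libraries in CPM per kb on a log axis, grouped by class, with a bar at each class median. Pcdhgc3 at 28.4 and Pcdhac2 at 7.73 CPM per kb lie above every other gene, and the class medians descend from gamma-A (2.87) through gamma-B (1.42) and beta (1.09) to the numbered alpha genes (0.679).

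The highest levels per length were those of Pcdhgc3 and Pcdhac2, both C-type genes. Pcdhgc3, which in mouse cortical neurons promotes dendrite arborization, had 71.0 and 70.7 CPM in the HT male and female, against 76.5 and 74.1 CPM in the WT male and female. It had the most counts of all 58 genes in each library. Both HT libraries lay below both WT libraries, by less than the error of the test (log2 fold change -0.09 ± 0.11, 95% interval -0.32 to 0.15, adjusted p = 0.816 by edgeR).

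Pcdhac2, second to Pcdhgc3 per length, is required for the even spacing of serotonergic axons in mice. Its levels were 26.9 and 24.2 CPM in the HT male and female, against 23.9 and 18.6 CPM in the WT male and female. The HT values were above both WT values, with a narrow margin between the HT female and the WT male. The log2 fold change was 0.27 ± 0.15 (95% interval -0.05 to 0.60, adjusted p = 0.516 by edgeR). Without the WT female it was 0.095 (adjusted p = 0.791). Pcdhac1, the other alpha C-type gene, stood at 0.967 CPM per kb beside 7.73 CPM per kb for Pcdhac2. It had 2.81 and 2.70 CPM in the HT libraries, against 2.55 and 1.84 CPM in the WT libraries (adjusted p = 0.763 by edgeR).

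Pcdhgc4, which is needed in mice for the survival of many neurons, had the smallest genotype p of all members. Its level was 18.4 CPM in the HT male and 17.9 CPM in the HT female, against 15.7 CPM in the WT male and 9.17 CPM in the WT female. The groups did not overlap, but most of the distance came from the WT female. The log2 fold change was 0.59 ± 0.21 (95% interval 0.14 to 1.05), with an unadjusted p of 0.0155 and an adjusted p of 0.306 by edgeR. Without the WT female the log2 fold change was 0.21 (adjusted p = 0.559), and without the WT male it was 0.99 (adjusted p = 5.82e-06). Pcdhgc5, whose protein binds a GABA-A receptor subunit, had 6.01 and 6.39 CPM in the HT libraries, against 6.38 and 4.17 CPM in the WT libraries, which overlapped.

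**Figure D2:**
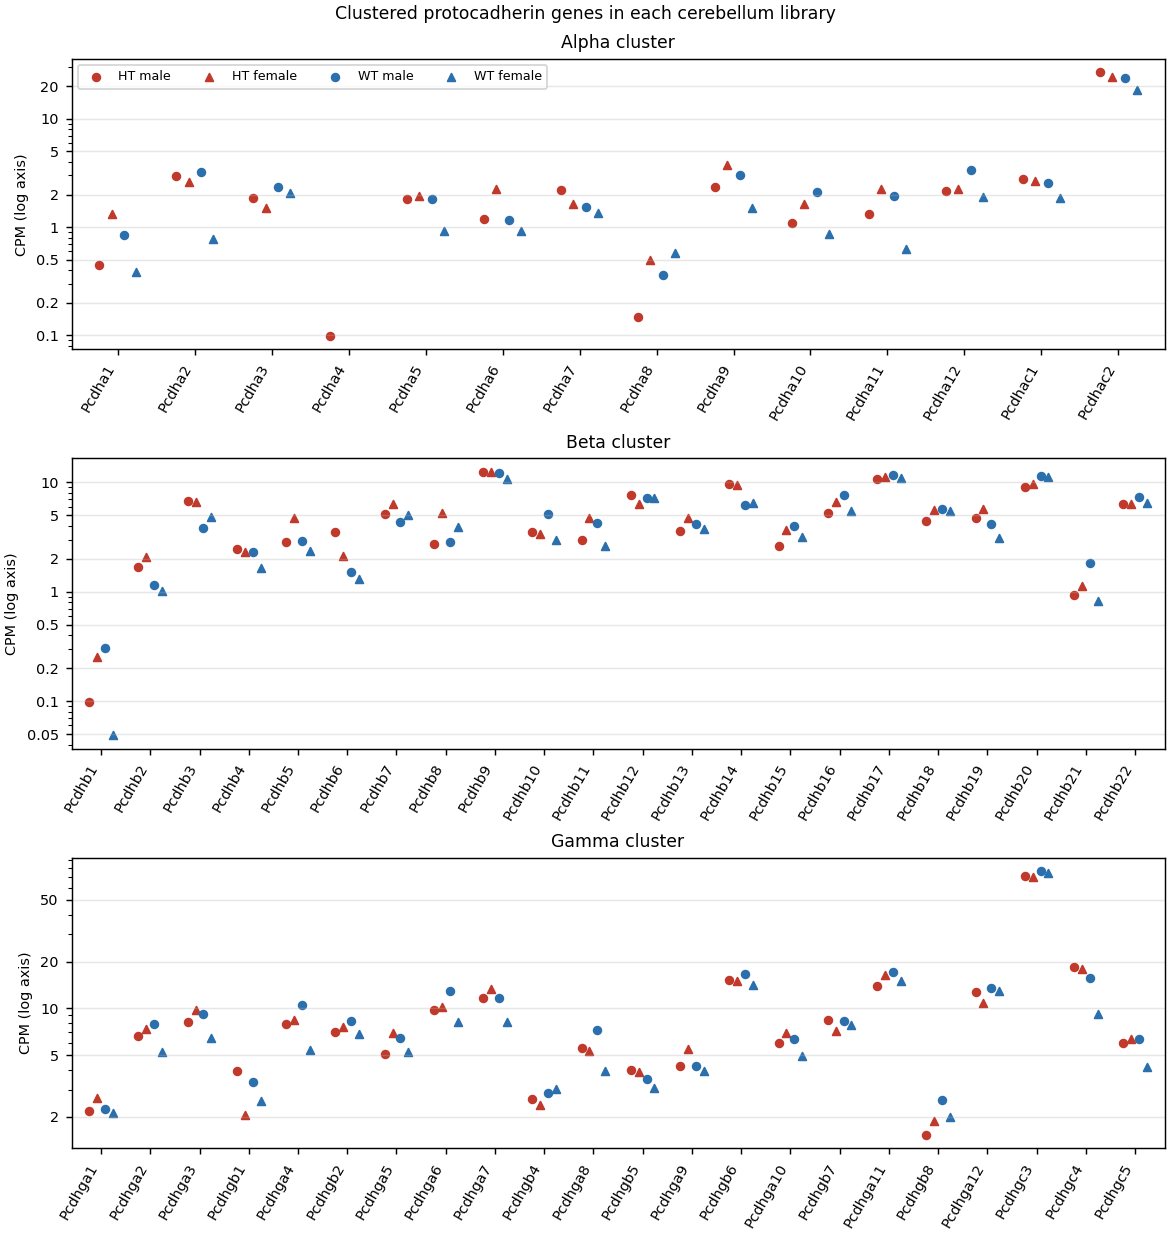
Level of each clustered protocadherin gene in each library, in CPM on a log axis, with genes in chromosomal order within the alpha, beta and gamma clusters. Circles are males and triangles females, with HT in red and WT in blue, and values of 0 are not drawn. Pcdhgc3 lies between 70.7 and 76.5 CPM in all 4 libraries, far above its neighbours, and the WT female triangle is the lowest symbol for 11 of 12 tested alpha genes.

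The numbered alpha genes had the lowest median per length of the 4 classes outside the C-type genes. Pcdha9 was the highest of them at 1.08 CPM per kb, with 2.37 and 3.76 CPM in the HT male and female, against 3.04 and 1.504 CPM in the WT male and female. Pcdha2 had 2.96 and 2.63 CPM in the HT male and female, against 3.22 and 0.776 CPM in the WT male and female. For both genes the groups overlapped, since the WT male lay within or above the HT values. Pcdha5, Pcdha6 and Pcdha7 had both HT libraries above both WT libraries, and Pcdha3 had both below. Those patterns were shown by 22.1% and 22.6% of all tested genes. The margin was close to nothing for Pcdha5 (1.824 CPM in the HT male, 1.823 in the WT male). It was narrow for Pcdha6 (1.18 CPM in the HT male, 1.15 in the WT male). Without the WT female, the log2 fold change of Pcdha2 was -0.20, beside 0.69 ± 0.47 with it. None of these differences passed the test, and the standard errors of the tested numbered alpha genes reached 0.70 on the log2 scale, for Pcdha1.

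Of the beta genes, Pcdhb9 was the highest per length at 3.95 CPM per kb, with 12.6 and 12.5 CPM in the HT male and female, against 12.3 and 10.9 CPM in the WT male and female. Pcdhb17 had 10.7 and 11.2 CPM in the HT libraries, against 11.6 and 11.0 CPM in the WT libraries. Both genes differed between genotypes by 0.12 ± 0.19 and -0.04 ± 0.20 on the log2 scale, within their errors.

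The other members with an unadjusted p under 0.05 by edgeR were all beta genes. They were 3 of 21 tested beta genes (14.3%), against 11.7% of all tested genes. Pcdhb14 had 9.71 and 9.47 CPM in the HT male and female, against 6.20 and 6.55 CPM in the WT male and female (log2 fold change 0.59 ± 0.22, adjusted p = 0.342 by edgeR). Pcdhb3 had 6.75 and 6.58 CPM in the HT libraries, against 3.83 and 4.85 CPM in the WT libraries (log2 fold change 0.63 ± 0.26, adjusted p = 0.379 by edgeR). Pcdhb6 had 3.50 and 2.13 CPM in the HT libraries, against 1.52 and 1.31 CPM in the WT libraries (log2 fold change 0.96 ± 0.38, adjusted p = 0.353 by edgeR). In all 3 genes both HT libraries lay above both WT libraries, a pattern shown by 22.1% of all tested genes. They were picked for small p in these same libraries, so this separation and the next values are not separate support. Leaving out any single library kept the Pcdhb14 value between 0.55 and 0.63 and the Pcdhb3 value between 0.46 and 0.80, while the Pcdhb6 value ranged from 0.60 without the HT male to 1.30 without the HT female. Pcdhb20 went the other way, with 9.17 and 9.72 CPM in the HT libraries, against 11.5 and 11.2 CPM in the WT libraries (adjusted p = 0.672 by edgeR).

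Among the gamma-A and gamma-B genes the highest per length were Pcdhgb6 and Pcdhga11. Pcdhga11 had 13.999 and 16.4 CPM in the HT male and female, against 17.1 and 15.04 CPM in the WT male and female. Pcdhgb6 had 15.3 and 15.05 CPM in the HT libraries, against 16.8 and 14.1 CPM in the WT libraries. For both genes the groups overlapped. Pcdhga7 had 11.6 and 13.3 CPM in the HT libraries, against 11.6 and 8.15 CPM in the WT libraries, with a log2 fold change of 0.35 ± 0.22 (adjusted p = 0.593 by edgeR) that was 0.095 without the WT female. Pcdhgb8 had the lowest fold change of all members, with 1.53 and 1.88 CPM in the HT libraries, against 2.55 and 1.99 CPM in the WT libraries (log2 fold change -0.41 ± 0.39).

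Summed over each cluster, the gamma genes gave the largest part of the counts. The gamma cluster summed to 232 and 239 CPM in the HT male and female, against 254 and 208 CPM in the WT male and female. The beta cluster summed to 110 and 121 CPM in the HT libraries, against 113 and 101 CPM in the WT libraries. The alpha cluster summed to 47.4 and 48.6 CPM in the HT libraries, against 48.3 and 32.4 CPM in the WT libraries. In each cluster the HT sums lay inside the WT range or overlapped it, and the WT female was the lowest library. Without it, the log2 ratio of HT over WT was -0.11 for the gamma sum, 0.03 for the beta sum and -0.01 for the alpha sum, beside 0.03, 0.11 and 0.25 with it. Fewer cells of a type and less RNA per cell cannot be told apart in such bulk sums.

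Of the 6 classes, only the alpha C-type pair had both HT sums above both WT sums, with 29.7 and 26.9 CPM in the HT male and female, against 26.5 and 20.5 CPM in the WT male and female. The log2 ratio of its genotype means was 0.27, and it was 0.10 without the WT female and 0.47 without the WT male. The numbered alpha genes summed to 17.7 and 21.7 CPM in the HT libraries, against 21.8 and 11.9 CPM in the WT libraries. The gamma C-type genes summed to 95.4 and 94.98 CPM in the HT libraries, against 98.6 and 87.4 CPM in the WT libraries. Pcdhgc3 makes up most of that last sum.

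**Figure D3:**
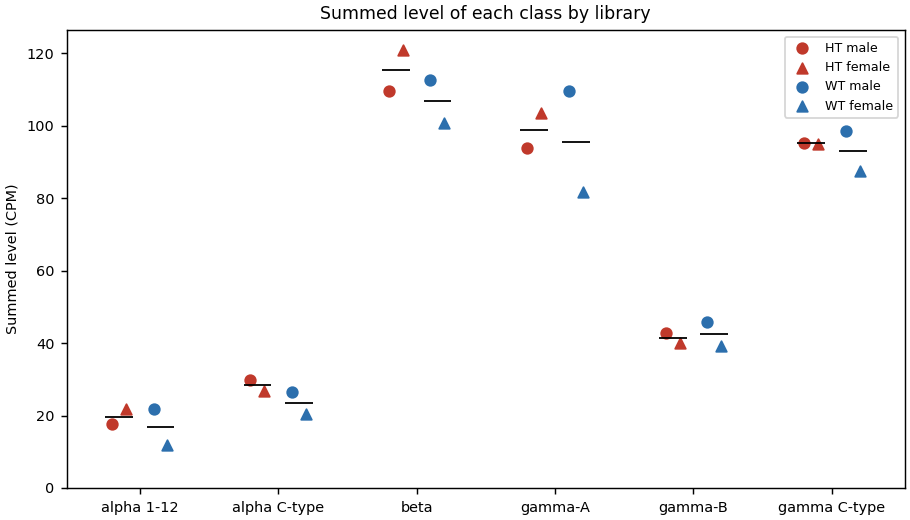
Summed level of each class of clustered protocadherin genes in each library, in CPM, with HT left of WT. Circles are males, triangles females and bars the means of 2 libraries. The WT female is lowest in all 6 classes, and the alpha C-type pair is the class in which both HT libraries (29.7 and 26.9 CPM) lie above both WT libraries (26.5 and 20.5 CPM).

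The makeup of the clusters was also compared as shares of counts. The alpha cluster supplied 12.2% and 11.9% of all clustered protocadherin counts in the HT male and female, against 11.7% and 9.49% in the WT male and female. The gamma cluster supplied 59.7% and 58.5% in the HT libraries, against 61.2% and 60.97% in the WT libraries. The C-type genes supplied 32.1% and 29.9% in the HT libraries, against 30.2% and 31.6% in the WT libraries. Within the gamma cluster, Pcdhgc4 took 7.92% and 7.52% of the counts in the HT libraries, against 6.18% and 4.40% in the WT libraries. Pcdhgc5 took 2.59% and 2.68% in the HT libraries, against 2.51% and 2.004% in the WT libraries. Pcdhgc3 took 74.4% of the gamma C-type counts in each HT library, against 77.6% in the WT male and 84.7% in the WT female. Of the shares so far only that of the C-type genes overlapped between genotypes, but other shares computed also overlapped. Pcdhgc3 took 30.6% and 29.6% of the whole gamma cluster in the HT libraries, against 30.1% and 35.6% in the WT libraries. The shares of the beta cluster, of Pcdhac1 and Pcdhac2 in the alpha cluster, and of gamma-B among gamma-A and gamma-B genes overlapped too. Each share rests on 2 libraries per genotype, and those shown were chosen after their values were seen. Across the 55 tested members, the Pearson correlation of log2 CPM was 0.948 to 0.951 between libraries of the same genotype (2 pairs) and 0.938 to 0.9503 between libraries of different genotypes (4 pairs). Over the 10 tested numbered alpha genes alone it was 0.591 to 0.617 within genotypes and 0.245 to 0.803 between them.

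The comparison of genotypes asked whether loss of an Arid1b copy was accompanied by a difference in any of these genes. At an adjusted p of 0.05 in the edgeR fit, 0 of the 55 tested members passed, against 0.0198% of all 15117 tested genes. The smallest adjusted p of a member was 0.306, for Pcdhgc4. At an unadjusted p under 0.05 there were 4 members (7.27%), all higher in HT, against 11.7% of all tested genes. DESeq2 called 0 members, against 0.225% of all tested genes, and 0 members had an unadjusted p under 0.05 in it, against 4.79% of all tested genes.

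By direction, 33 members were higher and 22 lower in HT, where 51.1% of all tested genes were higher. The median log2 fold change of the members was 0.12, beside 0.0063 over all tested genes. Both HT libraries lay above both WT libraries in 15 members (27.3%), against 22.1% of all tested genes. Both lay below in 7 members (12.7%), against 22.6% of all tested genes. The median was 0.43 in the alpha cluster, with 9 genes higher and 3 lower, and it was -0.0033 without the WT female. It was 0.12 in the beta cluster, with 12 higher and 9 lower, and 0.02 in the gamma cluster, with 12 higher and 10 lower. Without the WT female these were -0.02 and -0.12. Gamma-A and gamma-B genes differed in their counts, with 9 of 12 gamma-A genes and 1 of 7 gamma-B genes higher in HT, and that difference was not tested. In 11 of the 12 gamma-A genes HT was higher than WT in females and lower in males, and the gamma-A median was 0.11 with the WT female and -0.14 without it.

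The precision of the test depended on level. The 95% interval of the log2 fold change had a median half-width of 1.01 in the 10 tested members under 2 CPM and of 0.42 in the 11 members at 10 CPM or more. The standard error ranged from 0.107 for Pcdhgc3 to 0.697 for Pcdha1. These widths come before adjustment over all tested genes, and a difference had to exceed them clearly to pass the test. The intervals of Pcdhgc4, Pcdhb14, Pcdhb6 and Pcdhb3 lay above 0, yet none of them passed at this depth with 2 libraries per genotype.

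**Figure D4:**
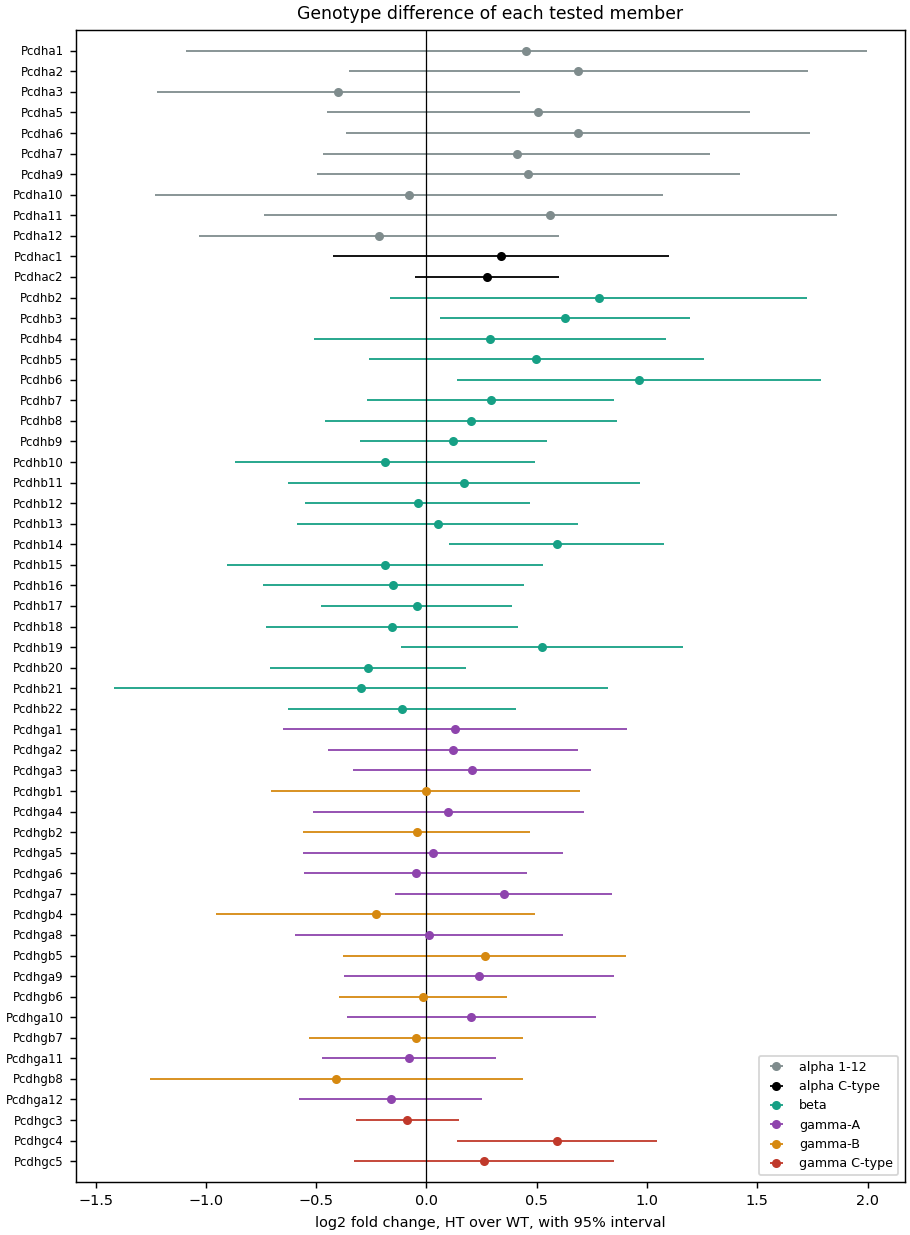
Log2 fold change of HT over WT for each tested member with its 95% interval from the edgeR fit, in chromosomal order and coloured by class. The intervals of Pcdhgc4, Pcdhb14, Pcdhb6 and Pcdhb3 lie above 0, and none of the 55 members passes the threshold after adjustment over all tested genes.

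Ratios within each sex had medians of opposite sign, a difference that was not tested. The members' median log2 ratio of HT over WT was -0.11 in males and 0.40 in females, where all tested genes had 0.002 and -0.008. In 30 of 55 members (54.5%) HT was lower than WT in males and higher in females, a pattern shown by 20.2% of all tested genes. The alpha cluster had the widest gap, with medians of -0.23 in males and 0.99 in females. Each sex has 1 library per genotype, so these ratios have no replicate check, and sex cannot be told apart from the single WT female library. Without the WT female, the members' median log2 fold change was -0.09, with 21 members higher and 34 lower.

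Without the WT male, 5 of 56 tested members passed the test, all higher in HT, while 17.5% of all tested genes passed it. They were Pcdhgc4, Pcdha2 (log2 fold change 1.85, adjusted p = 0.00135), Pcdhac2 (0.46, adjusted p = 0.0106), Pcdhga7 (0.61, adjusted p = 0.0300) and Pcdhb6 (1.12, adjusted p = 0.0468). In that fit the WT female is the only WT library, and it is assumed to vary like the HT pair. Each fit that leaves out a library has 1 library in a genotype. The members' median log2 fold change was 0.31 without the WT male and -0.09 without the WT female. It was 0.19 without the HT male and 0.0032 without the HT female.

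**Figure D5:**
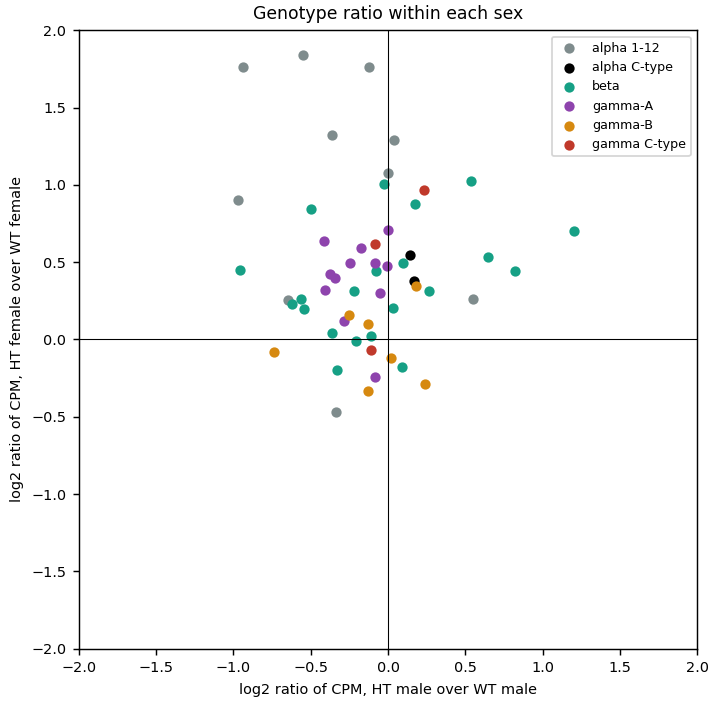
Log2 ratio of HT over WT for each tested member in males (x axis) and in females (y axis), with 1 library per genotype and sex and points coloured by class. Of 55 members, 30 lie left of 0 on the male axis and above 0 on the female axis, and the median is -0.11 in males and 0.40 in females.

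No member differed between the sexes after adjustment, where 0.0595% of all tested genes did. At an unadjusted p under 0.05 there was 1 member, Pcdhb8, against 3.82% of all tested genes. Pcdhb8 had 5.27 CPM in the HT female and 3.88 CPM in the WT female, against 2.71 CPM in the HT male and 2.86 CPM in the WT male (log2 fold change of females over males 0.70, adjusted p = 0.994 by edgeR). Of the 55 members, 16 were higher and 39 lower in females. The median log2 fold change of females over males was -0.12 for the members and -0.012 over all tested genes. The female libraries include the WT female, which was the lowest library in 34 of the 55.

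Genes of the machinery that selects protocadherin promoters were lower in HT more often than higher, without any passing the test. Of 20 tested genes of this list, 17 were lower and 3 higher. Their median was -0.13 on the log2 scale. Nipbl, which loads cohesin onto DNA, had 47.6 and 52.3 CPM in the HT male and female, against 62.4 and 69.3 CPM in the WT male and female (log2 fold change -0.40 ± 0.12, adjusted p = 0.223 by edgeR). The cohesin subunits Stag2 and Stag1 had log2 fold changes of -0.33 ± 0.11 each (adjusted p = 0.267 and 0.292 by edgeR). Both HT libraries lay below both WT libraries in 11 of the 20 genes, against 22.6% of all tested genes. All 14 granule cell markers were also lower in HT, with a median of -0.44, and their part in these values was not tested.

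Proteins that act with protocadherins at the membrane showed no common direction. Of 25 signalling partners, 11 were higher and 14 lower, with a median of -0.01. Marcks, an actin-regulating protein that acts downstream of gamma protocadherins in dendrites, had 66.3 and 61.6 CPM in the HT libraries, against 96.1 and 82.4 CPM in the WT libraries (log2 fold change -0.48 ± 0.11, adjusted p = 0.156 by edgeR). Ptk2b, the kinase Pyk2 that protocadherins inhibit, had 26.9 and 27.8 CPM in the HT libraries, against 20.6 and 16.7 CPM in the WT libraries (log2 fold change 0.56 ± 0.16, adjusted p = 0.209 by edgeR). Genes flanking the clusters gave 15 higher and 6 lower of 21, with a median of 0.11, and classical cadherins 9 higher and 6 lower of 15, with a median of 0.14. None of these passed the test.

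The nonclustered protocadherins, which lie elsewhere in the genome or beside the clusters and have no promoter choice, resembled the alpha cluster in direction. In HT, 11 were higher and 1 lower, where 51.1% of all tested genes were higher. Their median log2 fold change was 0.37, beside 0.43 in the alpha cluster. Within sexes their median log2 ratio was -0.0074 in males and 0.80 in females, beside -0.23 and 0.99 in the alpha cluster. The WT female was the lowest library in 11 of 12. Their sums were 382 and 379 CPM in the HT male and female, against 380 and 227 CPM in the WT male and female. Pcdh10 had 62.3 and 56.5 CPM in the HT libraries, against 55.5 and 32.2 CPM in the WT libraries (log2 fold change 0.49 ± 0.16, adjusted p = 0.293 by edgeR). Pcdh1 and Pcdh12, both higher in HT, count here and among the genes flanking the clusters, so the lists are not separate.

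Marker sums of other cell types also differed between libraries. Markers of brainstem and deep nuclei neurons, 12 genes, summed to 384 and 375 CPM in the HT male and female, against 329 and 160 CPM in the WT male and female. None of the 12 was at 0 in all libraries, 10 were higher and 2 lower in HT, and their median on the log2 scale was 0.97. Th, which makes catecholamines, was the one gene of that list to pass the test (log2 fold change 1.15 ± 0.15, adjusted p = 0.0473 by edgeR). The 2 lower genes, Hoxa5 and Hoxb5, were highest in the WT female. Hoxa5 had 2.32 and 5.64 CPM in the HT libraries, against 4.13 and 15.9 CPM in the WT libraries (log2 fold change -1.20 ± 0.26, adjusted p = 0.156 by edgeR). Hoxb5 had 4.44 and 9.34 CPM in the HT libraries, against 3.95 and 23.6 CPM in the WT libraries. Granule cell markers summed to 5021 and 5545 CPM in the HT libraries, against 6510 and 7482 CPM in the WT libraries, and all 14 were lower in HT. Choroid plexus markers summed to 2696 and 1553 CPM in the HT libraries, against 1471 and 1464 CPM in the WT libraries. Endothelial and mural markers summed to 173 and 150 CPM in the HT libraries, against 201 and 293 CPM in the WT libraries, and all 10 were lower in HT. Purkinje cell markers had 1 higher and 11 lower, interneuron markers 5 and 5 and astrocyte markers 3 and 7. Oligodendrocyte markers had 10 higher and 0 lower, choroid plexus markers 9 and 1 and meningeal markers 8 and 1. Slc6a5, of the interneuron list, also passed the test (log2 fold change 1.42 ± 0.18, adjusted p = 0.0473 by edgeR). It had 27.2 and 17.4 CPM in the HT libraries, against 11.5 and 5.68 CPM in the WT libraries. The part of these cell types in the protocadherin values was not tested.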

How the data were processed

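Per the labels' protocols, stranded poly(A) libraries from dissected cerebellum were pooled in 1 lane and sequenced as single-end reads of 100 bases. The authors deposited raw counts of reads per gene symbol, 1 column per library. STAR, featureCounts, FastQC, edgeR and mm9 come from the submitters' processing notes. Their versions, the strand setting and the handling of reads in overlapping genes are not given in the sources used here.

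The labels gave each library's genotype and sex. Counts were filtered with filterByExpr by genotype, which kept 15117 of 24015 genes with 99.9% of the counts, scaled by TMM (factors 0.999 to 1.00) and fitted with edgeR 4.0.16 in R 4.3.3 (robust quasi-likelihood, terms sex and genotype, 1 residual degree of freedom, median prior degrees of freedom 10.6). Two-sided p-values got a Benjamini-Hochberg adjustment across every tested gene, with a threshold of 0.05. Standard errors are the log2 fold change divided by the square root of F. The fit was also run on simulated counts of the genotype comparison, with 15083 genes tested. It recovered 20 of 67 genes changed by 1.5 times, 58 of 67 changed by 2 times and 64 of 65 changed by 4 times, with 0 false calls. The simulation gave every gene the same common coefficient of variation, 11.5%. It left out each gene's own spread and any library that stands apart, such as the WT female. Its recovery and false calls therefore do not give the power or error for the members. The labels call the WT mice littermates of the HT mice without saying which share a litter, and p-values reflect only how these 4 libraries spread. Intervals of log2 fold changes come from the fit, and floors cover counting error only.

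CPM used library totals, and lengths came from GENCODE vM21 (GRCm38), for 57 of 58 members, apart from the RefSeq lengths named for beta genes. Cluster sums, shares, medians and correlations are descriptions with no test. Replicate numbers only name libraries, and the sex term compares the genotypes within each sex. Other settings tried were limma-voom 3.58.1, DESeq2 1.42.0, the likelihood ratio test of edgeR, library totals, DESeq2 size factors, no filter, a filter of 1 CPM in 2 or more libraries, a fit without sex, and each library left out with genotype the only term. The members, gene lists and tests were chosen with earlier results of these data known. Fuller statistics went to the C-type genes and, in each other class, the 3 members of smallest genotype p and the 2 of highest mean level, and to up to 3 genes of smallest p per list. Pcdhb20 was named outside that rule after its values were seen, and so were Pcdha1, Pcdha3, Pcdha7, Pcdha11, Pcdhga4, Hoxb5, Pcdh1 and Pcdh12.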

Additional observations from a re-analysis of the deposited data

Results flagged for a closer look

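The following values have opposite signs in the 2 sexes. Each is the log2 ratio of HT over WT in females minus that in males, with 1 library per genotype and sex, and the difference between the sexes was not tested. Every female ratio contains the WT female library, which was the lowest library in 34 of 55 tested members, so all of them share that library.

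Among the genes given fuller statistics, the gap was widest for alpha genes. It was 1.89 for Pcdha2, 1.68 for Pcdha9 and 0.90 for Pcdha12. For gamma-A genes it was 0.71 for Pcdhga7, 0.48 for Pcdhga9 and 0.41 for Pcdhga11, and for Pcdhgc5 it was 0.70. It was 0.23 for Pcdhgb6, 0.13 for Pcdhb17 and -0.14 for Pcdhgb7. Pcdhgb7 was the only gene of this set with the female ratio below the male one. Members outside this set are not listed, and some had ratios further apart. Pcdha1 had 1.76 in females and -0.94 in males, and Pcdha11 had 1.84 and -0.55. Pcdhga4, a gamma-A gene, had 0.64 in females and -0.41 in males.

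Among summed levels the gap was 0.35 for all members, 0.61 for the alpha cluster, 0.30 for the beta cluster and 0.32 for the gamma cluster. By class it was 1.16 for the numbered alpha genes, 0.56 for gamma-A, 0.12 for gamma-B and 0.17 for the gamma C-type genes. Over all members but the C-type genes it was 0.43. In the numbered alpha genes the sum was higher in HT by 0.86 in females and lower in HT by a log2 ratio of -0.30 in males.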

How the results depend on the processing

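The number of genes called over the whole table was 3, and it was 34 with DESeq2, 166 with edgeR's likelihood ratio test, 7 with DESeq2 size factors, 7 with library totals, 553 without a filter, 0 with the stricter filter and 0 without the sex term, while leaving out a library gave 0 to 2730. The number of members called was 0 in all of those settings that keep every library, and leaving out a library gave 0 to 5, with 5 without the WT male. The members' median was 0.12 in each of the 8 alternatives that keep all libraries, and between -0.09 and 0.31 when a library was left out. Leaving out a library gave medians of -0.0033 to 0.62 for the alpha cluster, -0.07 to 0.87 for its numbered genes, -0.08 to 0.24 for beta, -0.12 to 0.28 for gamma, -0.14 to 0.35 for gamma-A, -0.17 to 0.10 for gamma-B and -0.04 to 0.57 for the gamma C-type genes, and log2 ratios of sums of 0.10 to 0.47 for the alpha C-type pair and -0.14 to 0.080 for gamma-B. The leave-out sums were added after seeing the data. Without its highest member, Pcdhgc3, the gamma C-type sum had a log2 ratio of 0.46 in place of 0.03. Some named genes turned sign when a library was left out, with ranges of -0.20 to 1.85 for Pcdha2, -0.00435 to 1.01 for Pcdha9, -0.62 to 0.23 for Pcdha12, -0.14 to 0.11 for Pcdhgb6, -0.17 to 0.060 for Pcdhgb7, -0.21 to 0.031 for Pcdhga11 and -0.043 to 0.57 for Pcdhgc5. The cause was not tested. Sex, a term of the fit, is the only pairing that the labels give, and the fit without it called 0 members. The replicate numbers, given in accession order, add none. Depth limits members under 2 CPM most.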
